A study of Mus musculus with 6 samples.

Results

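The regions described here are exonic RISC-IP peaks that contain a seed site for miR-1/miR-206, the principal microRNA seed family of differentiated skeletal muscle. RISC-IP is the immunoprecipitation of Ago2, a core protein of the RNA-induced silencing complex (RISC), with the RNAs bound to it. A peak is a stretch of the genome where macs2, a peak caller, found more reads than its background. The peak lists of 5 libraries were joined where peaks overlapped or touched, which gave 41363 intervals. Of these, 37548 overlapped annotated exons on 1 strand only. A total of 1291 of the exonic intervals, or 3.44%, held on that strand the 7-mer complementary to bases 2 to 8 of miR-206-3p, and these are the member intervals. They lay in 1184 genes. A listed peak in any of the 5 libraries was enough. Apart from the threshold of the peak lists, the rule used the sequence and the position of a peak, and neither its height nor the condition of the cells.

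miR-1 and miR-206 are muscle microRNAs whose levels rise as myoblasts leave the cell cycle and fuse. They share their seed, the bases at the 5′ end that pair with messenger RNA, and pairing is best known in 3'UTRs, where Ago2 is held on the transcript and lowers its translation and stability. Their known targets include actin-binding proteins, enzymes of the pentose phosphate pathway and signalling proteins of growing myoblasts. The study transfected another microRNA, miR-222, and neither miR-1 nor miR-206 was added to the cells.

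All libraries came from primary mouse satellite cells (MSC), the muscle stem cells, kept for 30 h in differentiation medium. Control-IPs were from MSC myocytes that received an siGFP duplex, which targets no mouse gene, and miR-222-IPs from myocytes that received a miR-222 duplex. Per the labels both were given at 10 nM and the cells were lysed 16 h later. The study's methods give a higher concentration for the same step. Each experiment had 2 control-IPs and 1 miR-222-IP, with control-IP replicates 1 and 2 beside miR-222-IP replicate 1 in experiment 1 and the others in experiment 2. The labels do not state whether replicates were separate cultures, so p-values measure only the spread between these samples. The label of miR-222-IP replicate 2 names miR222 as its condition, while its title reads miR22. No RNA from before the immunoprecipitation was used here, so that binding to Ago2 and the abundance of a transcript cannot be told apart.

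Control-IP replicate 3 stood apart from the other libraries and is left out of the member intervals. Its exonic peaks had a median width of 12270 bp, against 361 to 404 bp in the other 5 libraries, and 51.4% of them held the 7-mer. Its list covered 10 chromosomes, which held 583 of the 1291 member intervals. Its wide peaks overlapped 551 of these 583. Counts of libraries with a peak, and peaks said to lie in 1 library alone, refer to the other 5 libraries. The other lists held from 10579 peaks in control-IP replicate 1 to 37762 in miR-222-IP replicate 2. Values of single peaks are the deposited −log10 p of macs2, of which only those over 20 were listed. Read depths were not part of the lists.

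The mature microRNAs with this seed in the RefSeq annotation of GRCm38.p6 used here are printed 5′ to 3′, with the seed (bases 2 to 8) in capitals. miR-6349 and miR-6382 have the same seed as miR-206-3p, so that their sites cannot be told apart from those of miR-1/miR-206.
miR-206-3p: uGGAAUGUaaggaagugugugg
miR-6349: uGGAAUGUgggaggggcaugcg
miR-6382: uGGAAUGUaaagagagcacacaag

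The seed sites that the results below turn on are shown on the strand of the gene, with 20 bases before and 3 after the 7-mer, from GRCm38 (mm10). The 7-mer is in capitals, and the base after it is the one opposite base 1 of the microRNA. The first 10 lie in the 3'UTRs of genes reported as miR-1/miR-206 targets, the next 5 in the 3'UTRs of members with the highest peaks and of Tpm3, shown beside its copy Tpm3-rs7, and the last 2 in the 3'UTRs of members whose peaks differed strongly between miR-222-IPs and control-IPs.
Tmsb4x, chrX:167207463-167207492, minus strand: gcgccgccaatatgcactgtACATTCCacg
Twf1, chr15:94578168-94578197, minus strand: cactacatcgaagtcaatgcACATTCCaga
Tagln2, chr1:172506757-172506786, plus strand: gtatatatatgttttagcagACATTCCctg
Tkt, chr14:30573525-30573554, plus strand: atgctgggtgggtgaactacACATTCCagg
G6pdx site 1, chrX:74409671-74409700, minus strand: actagcctcagtgctactagACATTCCtcc
G6pdx site 2, chrX:74409988-74410017, minus strand: caccaccagtaaacccagctACATTCCtca
Cdk9, chr2:32707487-32707516, minus strand: ttgttttgttaagtttagagACATTCCtgg
Ets1 site 1, chr9:32756217-32756246, plus strand: agagttgatggctgactcccACATTCCctt
Ets1 site 2, chr9:32756317-32756346, plus strand: cacaaggaagcaaaggccaaACATTCCagc
Ets1 site 3, chr9:32757290-32757319, plus strand: aacctgttgaactcttacgtACATTCCaaa
Tpm3-rs7, chr14:113315713-113315742, plus strand: tgtcttagcaaccatttttaACATTCCaag
Tpm3, chr3:90099903-90099932, plus strand: tgtcttagcaaccatttttaACATTCCaag
Lyz2, chr10:117278043-117278072, minus strand: gagtagatatgagagaggtcACATTCCctc
Picalm, chr7:90208081-90208110, plus strand: ttatattcagtttgcagtagACATTCCtta
Ywhab, chr2:164018094-164018123, plus strand: agtctcacccctctaccttgACATTCCatg
Dhx15, chr5:52150309-52150338, minus strand: catgatcgttgtaattgttgACATTCCttt
Igf2, chr7:142652862-142652891, minus strand: gaacaacttcgatttgaaccACATTCCcca

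The 1291 member intervals held 1335 sites. A single site was present in 1248 members, 42 had 2 and 1 had 3. By the GENCODE M21 annotation, 559 sites (41.9%) lay in 3'UTRs, 430 (32.2%) in coding sequence, 83 in exons of non-coding transcripts and 18 in 5'UTRs. The remaining 245 sites (18.4%) lay outside exons, in intervals that reached past an exon. Members were wider than the other exonic intervals, with a median of 639 bp against 370 bp, as a longer stretch has more room for any 7-mer. Members were therefore compared with all 210 7-mers of the same base composition (2 A, 3 C and 2 T), found in the same intervals in the same way. The position of the miR-1/miR-206 site among the 210, from the highest value down, is given as its rank.

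By frequency alone the site was not unusual. The 3.44% of exonic intervals with the site compared with a median of 2.49% over the 210 7-mers, and ranked 51. Its distribution along transcripts was shifted to the 3'UTR: the 41.9% of its sites in 3'UTRs ranked 9, against a median of 34.1%, and the 32.2% in coding sequence ranked 146, against a median of 36.1%.

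Within 3'UTRs, miR-1/miR-206 sites were denser under peaks than outside them. In the 9572 protein-coding genes with an exonic interval and a 3'UTR, 612 sites lay in 7096 kb of 3'UTR under intervals and 786 in 11454 kb outside. The first count is above 559 because it includes intervals that overlap exons of both strands. The densities were 0.0863 and 0.0686 sites per kb, a ratio of 1.26. This was the highest ratio of all 210 7-mers, whose median was 0.947 and whose lowest was 0.727, and 61 of them were above 1. The 7-mer with the next ratio, 1.23, was the miR-1/miR-206 site shifted by 1 base, which shares 6 of its bases and overlaps it wherever an A follows.

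Coding sequence of the same kind of genes did not show this difference. There 436 sites under intervals and 740 outside gave 0.0636 and 0.0644 sites per kb, a ratio of 0.987. This ranked 168 of 210, with a median of 1.05. The difference in density was thus measured in 3'UTRs and not in coding sequence, under the same peaks and by the same count.

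**Figure D1:**
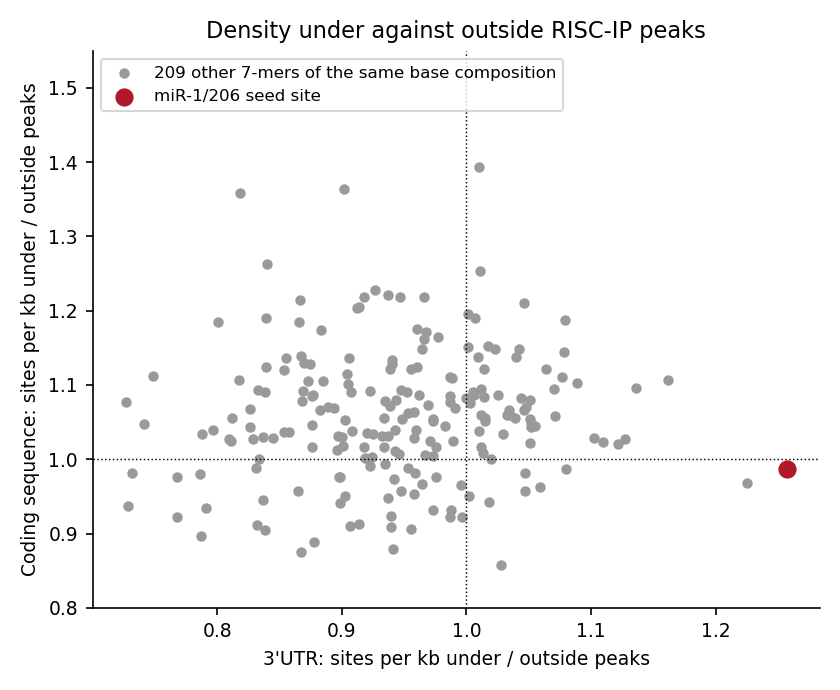
Ratio of sites per kb under against outside peaks in 3'UTRs (horizontal axis) and in coding sequence (vertical axis) for the miR-1/miR-206 seed site (red) and the 209 other 7-mers of its base composition (grey), with dotted lines at equal density. The seed site lies farthest to the right, at 1.26, and at 0.987 on the vertical axis.

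The higher density in 3'UTRs was also measured with the peaks of each of the 5 libraries alone. The ratio in 3'UTRs was 1.38 in control-IP replicate 1, 1.23 in replicate 2 and 1.28 in replicate 4, while the miR-222-IPs had 1.31 (replicate 1) and 1.28 (replicate 2). These values ranked 2, 7, 2, 2 and 1 of 210. All 5 libraries were thus above equal density, and miR-222-IPs and control-IPs overlapped. The mean was 1.29 ± 0.0149 (SD, n = 2) in miR-222-IPs and 1.30 ± 0.0802 (SD, n = 3) in control-IPs, with a difference of 0.00325 within experiments (two-sided exact permutation test within experiments, p = 1.0). With 6 possible arrangements of the labels this test cannot give a p below 0.167.

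In coding sequence the ratio was below 1 in 4 of the 5 libraries. Control-IP replicates 1, 2 and 4 had 0.856, 0.858 and 0.926, and the miR-222-IPs 0.959 and 1.02. Both miR-222-IPs were above all 3 control-IPs, with a difference within experiments of 0.0989 (exact permutation test, p = 0.167, the smallest it can give). The miR-222-IPs also had the longest lists, with 21074 and 37762 peaks, against 10579, 20000 and 17892 in these control-IPs. Condition and list length cannot be told apart here. In control-IP replicate 3, with its wide peaks, the ratios were 0.903 in 3'UTRs (rank 133) and 1.10 in coding sequence, each near the median of the 210 7-mers. Only 57 3'UTR sites and 21 coding sites lay outside its peaks. With its peaks added to the merged intervals the 3'UTR ratio was 1.21 (rank 1), and with only the peaks of at most 5000 bp of all 6 libraries it was 1.26 (rank 1).

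**Figure D2:**
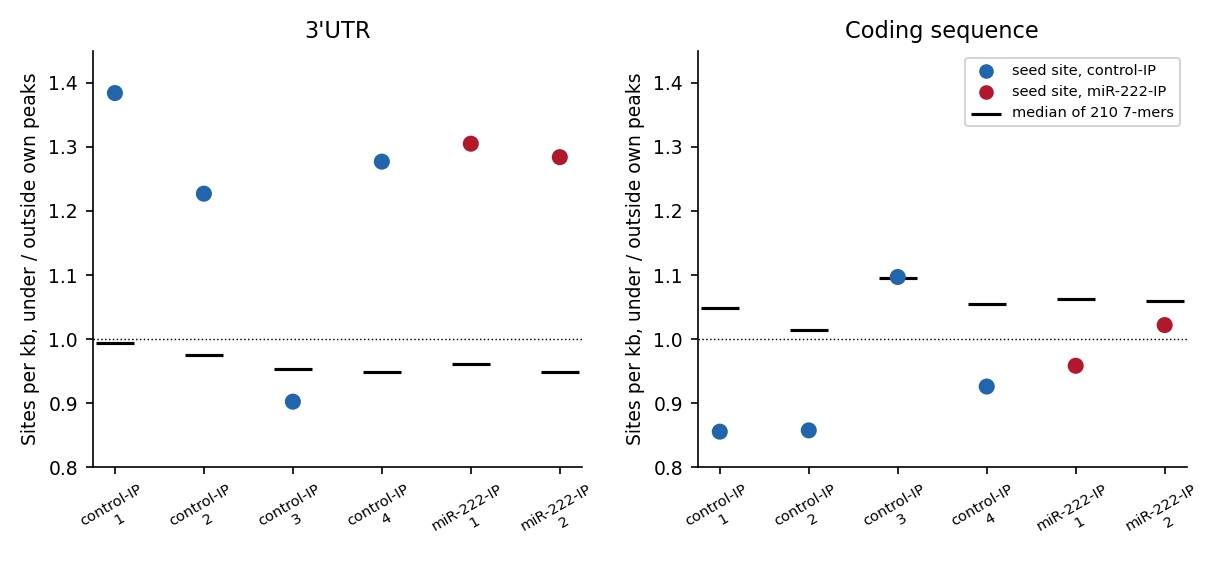
Ratio of miR-1/miR-206 sites per kb under against outside each library's own peaks, in 3'UTRs (left) and coding sequence (right), for control-IPs (blue) and miR-222-IPs (red), with the median of the 210 7-mers as a black bar. In 3'UTRs 5 libraries lie between 1.23 and 1.38 and control-IP replicate 3, with its wide peaks, at 0.903.

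The share of a library's own exonic peaks with the site did not separate the conditions either. Control-IP replicates 1, 2 and 4 had 3.85%, 2.93% and 3.44%, and the miR-222-IPs 3.60% and 3.46%. The groups overlapped, with means of 3.41% ± 0.459 (SD, n = 3) and 3.53% ± 0.0948 (SD, n = 2) and a difference within experiments of 0.110 percentage points (exact permutation test, p = 0.833).

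The density of sites in 3'UTRs was higher where more libraries had a peak. Under intervals with a peak in 1 library it was 72.7 sites per Mb (100 sites, exact Poisson 95% interval 59.2 to 88.5), under those with a peak in 2 to 4 libraries 78.6 (229 sites, 68.7 to 89.5) and under those with a peak in all 5 libraries 96.3 (230 sites, 84.2 to 109.6). Outside intervals it was 68.6 (786 sites, 63.9 to 73.6). These intervals cover counting error only. The interval for peaks in all 5 libraries did not overlap that for 3'UTR outside peaks, whereas that for peaks in 1 library did. Those for peaks in 1, in 2 to 4 and in all 5 libraries overlapped each other. The corresponding ratios to the density outside were 1.06, 1.15 and 1.40, which ranked 33, 5 and 1 of 210, while the medians of the 210 7-mers were 0.926, 0.937 and 0.960.

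**Figure D3:**
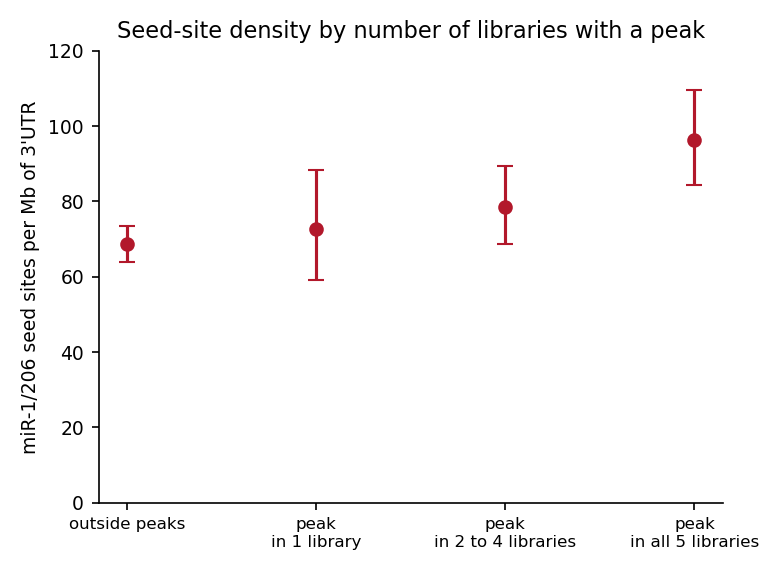
Density of miR-1/miR-206 seed sites per Mb of 3'UTR (vertical axis, from 0) outside peaks and under intervals with a peak in 1, in 2 to 4 and in all 5 libraries, with exact Poisson 95% intervals as bars. The density is 68.6 outside peaks and 96.3 under intervals with a peak in all 5 libraries.

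Shorter and longer forms of the site were compared with words of their own composition. The 6-mer complementary to bases 2 to 7 had a 3'UTR ratio of 1.15, the highest of 60 words. The 8-mer in which the site is followed by A, a form known to be bound more strongly by Ago2, had 225 sites under and 267 outside intervals, a ratio of 1.36 that ranked 2 of 560. Sites followed by C, G and T had 3'UTR ratios of 1.21, 1.82 and 1.14, the one for G from only 35 sites under and 31 outside intervals. The reverse complement of the site, which a transcript of the other strand would hold, had a ratio of 1.03 and ranked 39 of 210. The let-7a seed site (CTACCTC) had 0.988 (rank 93 of 105), and that of the transfected miR-222 (ATGTAGC) had 0.974 (rank 343 of 630).

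The surroundings of the sites were less distinctive. In 3'UTRs, 36.1% of the members' sites were followed by A (median of the 210 words 25.7%, rank 17). The 15 bases on each side of these sites were 54.9% A or U, at the median of the 210 words (54.9%, rank 102).

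Members had a peak in all 5 libraries more often than other exonic intervals, but the difference was small at equal width. A peak in every library was present in 383 of the 1291 members (29.7%), and in 19.5% of all exonic intervals. Because wide intervals hold more sites and more libraries, the comparison was made within 10 strata of width, where the Mantel-Haenszel odds ratio was 1.13 (95% interval 0.990 to 1.29). It ranked 42 of the 210 words, so that this share did not set the members apart. Without strata it was 1.78. The interval treats exonic intervals as independent, although 97 genes held more than 1 member.

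The labelled cell type was checked with marker genes, since the site counts depend on which transcripts were present. An exonic interval was found for all 8 skeletal muscle markers, 6 of them in all 5 libraries. The highest value over Des, the intermediate filament of muscle, was 53.4, 37.7 and 36.6 in the control-IPs (replicates 1, 2 and 4, in this order throughout) and 75.8 and 169.0 in the miR-222-IPs (replicates 1 and 2). Myog, the regulator of myocyte differentiation, had a peak only in miR-222-IP replicate 2, with 75.7. For muscle markers with a peak, the unscaled values of control-IPs were thus lower than those of miR-222-IP replicate 2. Values of that library were also higher over intervals in general. Its scaling factor, described below, was 1.493, against 0.7028, 0.9698 and 0.9895 for the control-IPs. The size of the gap varied between muscle markers. Myod1 had 27.4, 22.3 and 26.8 in the control-IPs and 173.6 in miR-222-IP replicate 2. Myh3 had 67.2, 51.6 and 62.0 in the control-IPs and 101.9 in that library. Why they differed was not tested.

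All 3 leukocyte markers also had intervals, 2 of them in all 5 libraries. Adgre1, a surface receptor of macrophages, reached 219.2, 196.5 and 235.8 in the control-IPs and 234.6 and 226.1 in the miR-222-IPs, above every muscle marker in every library. Cd68, a lysosomal protein of macrophages, reached from 113.8 to 139.2, with the lowest value in miR-222-IP replicate 2. Ptprc, the other leukocyte marker, had 69.0 and 137.3 in control-IP replicates 2 and 4, and 87.2 and 142.1 in the miR-222-IPs. Leukocyte markers were thus not all higher in miR-222-IP replicate 2, unlike the muscle markers. Intervals were found for 2 of 4 fibroblast markers, neither in all 5 libraries, for 2 of 3 endothelial markers, of which Pecam1 was found in all 5 (26.1 to 81.2), and for none of 2 adipocyte markers. The part of leukocyte transcripts in the results on members was not tested. In such bulk samples, fewer cells of a type and less RNA per cell cannot be told apart.

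Known targets of miR-1/miR-206 had a member more often than protein-coding genes in general. A list of 44 genes from the literature was used, from which 32 had an exonic interval and 15 (46.9%) had a member, each with its site in the 3'UTR. Of 9600 protein-coding genes with an exonic interval, 1120 (11.7%) had a member. Known targets were mostly picked in the literature because they have such a site, so that this count is no independent evidence. Among genes with an exonic interval and at least 1 site in the annotated 3'UTR, a peak lay on a site in 15 of 20 known targets (75.0%) and in 568 of 1205 protein-coding genes (47.1%).

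The highest known target was Tmsb4x, which encodes thymosin β4, a binder of actin monomers. Its 3'UTR interval had values of 240.2, 238.7 and 233.9 in the control-IPs and of 238.3 and 216.3 in the miR-222-IPs. The 5 values lay close together, and the lowest was in miR-222-IP replicate 2. Twf1, twinfilin-1, another actin monomer binder, had 118.1, 55.8 and 121.7 in the control-IPs and 144.7 and 144.2 in the miR-222-IPs. Tagln2, transgelin-2, an actin-bundling protein, had 54.5, 95.8 and 109.2 in the control-IPs and 84.0 and 168.7 in the miR-222-IPs. In Twf1 both miR-222-IPs were above the control-IPs before scaling. After the scaling described below, its log2 ratio of miR-222-IP to control-IP was 0.27 in experiment 1 and −0.35 in experiment 2. In Tagln2 the groups overlapped before scaling.

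Both enzymes of the pentose phosphate pathway with a site on the list had members in all 5 libraries. G6pdx, the first enzyme of the pathway, has 2 sites in its 3'UTR, in 1 interval with values of 66.2, 72.9 and 68.3 in the control-IPs and 77.2 and 127.1 in the miR-222-IPs. Tkt, transketolase, had 51.0, 162.3 and 78.2 in the control-IPs and 87.3 and 133.9 in the miR-222-IPs. Pgd, another enzyme of the pathway on the list, had 3 exonic intervals and no site in its 3'UTR.

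Cdk9, the kinase that releases paused RNA polymerase, had 27.5, 70.1 and 50.2 in the control-IPs and 71.5 and 139.3 in the miR-222-IPs. Ets1, a transcription factor, was the only member with 3 sites. All 3 lie in the 3'UTR within 1 interval of 2864 bp, and 2 are followed by A. Its values were 48.2, 52.2 and 54.1 in the control-IPs and 53.2 and 95.3 in the miR-222-IPs. The values of 4 libraries lay between 48.2 and 54.1, and miR-222-IP replicate 2 was higher. Slc8a1, the sodium/calcium exchanger, and Hspd1, a mitochondrial chaperonin, also had a peak in all 5 libraries, with medians over the control-IPs of 69.7 and 40.4.

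The other members among known targets were found in fewer libraries. Frs2, an adaptor of fibroblast growth factor receptors, Rasa1, a GTPase-activating protein of Ras, and Mmd had a peak in 4 libraries. Pola1, the catalytic subunit of DNA polymerase alpha, reached 28.8 in 1 control-IP and 25.0 in 1 miR-222-IP, both replicate 2. Igf1 and Utrn, which encodes utrophin, had a peak over the site in miR-222-IP replicate 2 alone, with 26.8 and 38.5, although other intervals of both genes were found in control-IPs.

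In 5 known targets, Hdac4, Gja1, Timp3, Gpd2 and Kcnj2, exonic peaks were present but none lay on a site of the 3'UTR. Hdac4, a repressor of muscle genes and the classic target of miR-1, had 2 intervals, with at most 38.4, and only in miR-222-IP replicate 2. Gja1, connexin 43, had 1 interval, with 43.8 in control-IP replicate 2. Pax3 and Pax7, regulators of satellite cells with 2 and 4 sites in their 3'UTRs, had no exonic interval. Absence from the lists says only that no peak over 20 was called. A gene without an exonic interval may also have had peaks that overlapped exons of both strands, which were left out.

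**Figure D4:**
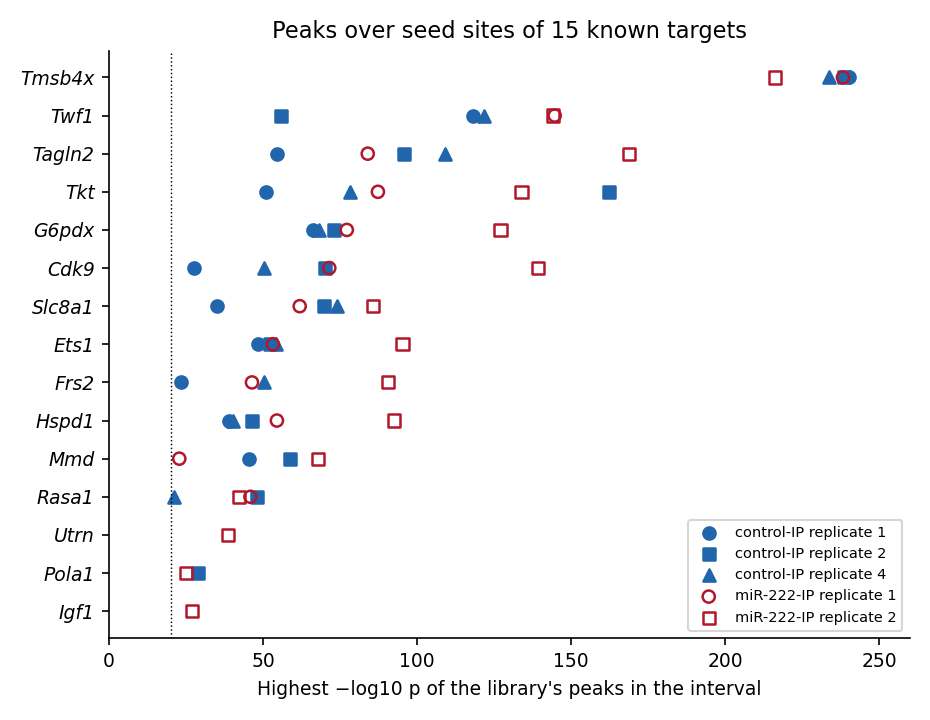
Highest −log10 p of each library's peaks (horizontal axis, linear) in the intervals over seed sites of the 15 known targets, ordered by their median over libraries, with control-IPs as filled blue and miR-222-IPs as open red symbols and the threshold of 20 as a dotted line. Tmsb4x lies at 216.3 to 240.2, while Igf1 and Utrn have a peak in only 1 of the 5 libraries shown, miR-222-IP replicate 2. Control-IP replicate 3 is not shown.

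Besides Tmsb4x, the members with the highest median over the control-IPs were of varied function. The highest was a processed pseudogene of the late endosomal GTPase Rab7, Rab7-ps1, with 246.3, 261.5 and 267.3 in the control-IPs and 255.4 and 230.3 in the miR-222-IPs. The next was Tpm3-rs7, a copy of the tropomyosin gene Tpm3, with 225.5, 213.0 and 213.2 in the control-IPs and 214.3 and 183.0 in the miR-222-IPs. Its printed site is identical to that of Tpm3 in all 30 bases. Reads of Rab7-ps1, Tpm3-rs7 and Gm7964, another predicted gene among the highest 10, could stem from related genes, and their assignment is uncertain.

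Tpm3 itself was a member with 75.7, 188.7 and 124.0 in the control-IPs and 125.1 and 158.0 in the miR-222-IPs. Picalm, a clathrin assembly protein, had a median of 181.3 over the control-IPs, Paics, an enzyme of purine synthesis, 181.5, Arf3, a Golgi GTPase, 181.3 and Ywhab, a 14-3-3 protein, 161.1. All of these 4 sites lie in 3'UTRs. Lyz2, the lysozyme of macrophages, had 156.8, 184.8 and 184.3 in the control-IPs and 184.3 and 165.6 in the miR-222-IPs, with a site in the 3'UTR. Lgmn, a lysosomal protease, had a median of 173.1 over the control-IPs, with its site outside exons. The peaks of Lyz2 and Lgmn, which macrophages express strongly, overlapped in height with those of Picalm, Paics and Arf3.

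Of the other gene groups, the actin cytoskeleton and adhesion list had 37 of 40 genes with an exonic interval and 8 with a member (21.6%), 5 of them with a site in the 3'UTR, which compares with 11.7% and 5.43% of protein-coding genes. Genes with more intervals have more room for a member, and the median number of exonic intervals per gene was 4.0 in this list and 2.0 over protein-coding genes. It was 3.0 for the known targets, 4.0 for the vacuolar ATPase, 5.0 for the sarcomere and 5.0 for the myogenic regulator list. The actin list shares Tmsb4x, Twf1 and Tagln2 with the known targets. Coro1c, coronin-1C, an actin-binding protein, had 2 members, of which the one in the 3'UTR holds 2 sites, both followed by A. Its values were 20.9, 28.5 and 36.7 in the control-IPs and 37.9 and 74.3 in the miR-222-IPs. Cnn3, calponin-3, had 60.1 over a 3'UTR site in miR-222-IP replicate 2 alone.

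Of the vacuolar ATPase subunits, which acidify lysosomes and endosomes, 19 of 21 had an exonic interval and 5 (26.3%) a member, beside 11.7% of protein-coding genes. The list was chosen with earlier results of these data known. Atp6v1a, the catalytic subunit, had a 3'UTR member in all 5 libraries, with 43.5, 26.7 and 44.5 in the control-IPs and 53.3 and 94.3 in the miR-222-IPs. Atp6v1e1 had one in 4 libraries and Atp6v0e2 one in control-IP replicate 2 alone, with 29.0. Atp6v1c1 and Tcirg1 held their sites in coding sequence. All 3 genes of this list with an exonic interval and a 3'UTR site had a peak on it, beside 568 of 1205 protein-coding genes (47.1%).

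Most sarcomere genes with a member had their site outside the 3'UTR. Of 39 genes, 33 had an exonic interval, 6 (18.2%) a member and 2 (6.06%) a site in the 3'UTR under it, Tpm3 and Tpm2, beside 11.7% and 5.43% of protein-coding genes. These were also the only genes of the list with an interval and a site in the 3'UTR. Tpm2, beta-tropomyosin, had 120.2 in miR-222-IP replicate 2 and no peak over the site in the other 4 libraries. Acta1, skeletal muscle actin, had a member in all 5 libraries with its site outside exons, with 43.2, 37.0 and 44.0 in the control-IPs and 55.3 and 140.9 in the miR-222-IPs. Ttn, titin, had 2 members in coding sequence, both in miR-222-IP replicate 2 alone.

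Myogenic regulators had a member no more often than other genes. Of 29, 17 had an exonic interval and 2 (11.8%) a member, beside 11.7% of protein-coding genes. Eya4, a transcriptional coactivator and phosphatase, had a 3'UTR member with 24.0 and 20.2 in control-IP replicates 1 and 4 and 73.7 and 75.3 in the miR-222-IPs. Control-IP replicate 2 had no peak there. Tcf3, the E protein partner of MyoD, had its site outside exons and a peak in only 1 of the 5 libraries, miR-222-IP replicate 2, with 22.8. A peak of control-IP replicate 3 also overlapped this interval, with 103.2.

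The gene with the most members was Mdm4, an inhibitor of p53, with 4. Of these, 3 lie in its 3'UTR, each in 1 of the 5 libraries, with 35.7 and 27.3 for miR-222-IP replicate 2 and 23.0 for control-IP replicate 2. Peaks of control-IP replicate 3 reached 79.6 over each of these 3 intervals. The fourth lies in coding sequence, with 24.1 and 47.9 in control-IP replicates 2 and 4 and 47.5 and 77.6 in the miR-222-IPs.

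Whether miR-222 transfection changed the members was compared in intervals with a peak in all 5 libraries. Values were scaled by the median of ratios, with factors from 0.703 in control-IP replicate 1 to 1.49 in miR-222-IP replicate 2. The log2 ratio of the miR-222-IP to the mean control-IP was then taken within each experiment. With 1 miR-222-IP per experiment, no test of single intervals was made.

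The 383 members had a mean log2 ratio of 0.04, and the other intervals one of 0.00. The difference of 0.04 was measured in each experiment (0.04 and 0.04, ranks 2 and 40 of 210), and its mean ranked 5. It is small beside the SD over intervals, 0.47 and 0.53 in experiments 1 and 2, and close to the value for a single pair of libraries of 1 condition, control-IP replicates 1 and 2, whose log2 ratio differed between members and others by 0.04 (rank 20). Log2 ratios fell with the height of the peak, with a Spearman correlation of −0.25 over all 7332 intervals with a peak in all 5 libraries and of −0.36 over the 383 members, which share libraries and scaling factors. Within 10 strata of mean value the difference between members and others was 0.05 (rank 3). With only peaks over 50 it was −0.00959.

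In 81 of the 383 members (21.1%) the scaled miR-222-IP was above the control-IPs of its own experiment, in both experiments. This was so in 17.3% of all intervals with a peak in all 5 libraries. In 61 members (15.9%) the miR-222-IP was below them in both experiments, against 18.4% of all. In experiment 2 only control-IP replicate 4 was used. The share above was thus somewhat higher and the share below somewhat lower than over all intervals, with no test made. Among members with a mean value below the median of all intervals, 54 of 171 (31.6%) were above the control-IPs, against 22.2% of such intervals, and among the higher members 27 of 212 (12.7%), against 12.4%. Below the control-IPs were 13 of the lower members (7.60%, against 12.2% of such intervals) and 48 of the higher members (22.6%, against 24.5%). In the highest of 10 strata of mean value, 46.6% of all intervals were below and 1.91% above. Without scaling 210 members were above and 11 below, beside 50.8% and 2.56% of all intervals, and with scaling to the total 10 and 131, beside 1.91% and 34.8%, so that the counts of members moved with those of all intervals.

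**Figure D5:**
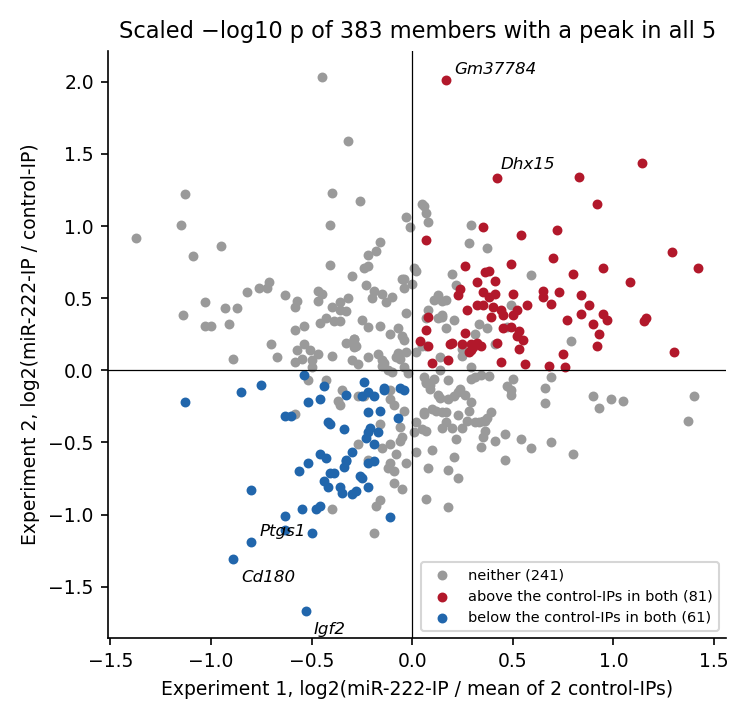
Log2 ratio of the scaled −log10 p in miR-222-IP to control-IP in experiment 1 (horizontal axis) and experiment 2 (vertical axis) for the 383 members with a peak in all 5 libraries, with 81 above (red) and 61 below (blue) the control-IPs in both experiments. The 5 named members have a mean among the 3 largest or the 3 smallest, such as Gm37784 at 1.09 and Cd180 and Igf2 at −1.10.

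Gm37784 and Dhx15 were among the members with the 3 largest mean log2 ratios of those above. Dhx15, an RNA helicase of splicing, had 23.0, 23.6 and 24.5 in the control-IPs and 53.6 and 93.7 in the miR-222-IPs, a mean log2 ratio of 1.08. The groups did not overlap, and the control-IPs lay just over the threshold of 20. Gm37784, a predicted gene with its site outside exons, had 28.7, 44.7 and 31.5 in the control-IPs and 51.9 and 191.2 in the miR-222-IPs, a mean of 1.09 that came mostly from experiment 2 (0.17 and 2.01).

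The 3 smallest were in Cd180, Igf2 and Ptgs1. Cd180, a receptor of B cells and macrophages with the site in its coding sequence, had 113.8, 123.1 and 92.1 in the control-IPs and 82.4 and 56.2 in the miR-222-IPs, a mean log2 ratio of −1.10. Igf2, a growth factor of muscle differentiation, had 127.3, 136.7 and 137.9 in the control-IPs and 118.0 and 65.5 in the miR-222-IPs. Its mean was −1.10, with −0.53 in experiment 1 and −1.67 in experiment 2. Ptgs1, cyclooxygenase-1, had 124.0, 122.8 and 106.7 in the control-IPs and 92.1 and 70.6 in the miR-222-IPs, a mean of −1.0. In all 3 the control-IPs were above the miR-222-IPs before scaling too.

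Among the 5 libraries, peaks called only in miR-222-IPs were no more frequent among members than among all exonic intervals. Peaks of control-IP replicate 3 were not counted, so some of these intervals may have a control-IP peak. In 301 members (23.3%), and in 31.2% of all exonic intervals, miR-222-IP replicate 2 was the only library with a peak. Its list was the longest, with 37762 peaks. A peak in both miR-222-IPs and in no control-IP was found in 72 members (5.58%) and in 6.61% of all. Within strata of width the odds ratios were 0.945 and 0.948, ranks 139 and 140 of 210.

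Sites for miR-1/miR-206 and miR-222 were found together in 64 members (4.96%), and the miR-222 7-mer was present in 2.42% of the other exonic intervals. Within strata of width the odds ratio was 1.22 (95% interval 0.932 to 1.60), which includes 1. For let-7a it was 0.977 (0.758 to 1.26). Of the genes that the study followed up as miR-222 targets, Rbm24, Chrng, Myo10 and Tceal9 (Wbp5) had exonic intervals without a miR-1/miR-206 site. D1Pas1, for which the study lists a miR-222 target sequence in the 3'UTR, had no exonic interval by the rule used here. That rule leaves out control-IP replicate 3 and intervals over exons of both strands. Ahnak had 1 member among 3 intervals, with the site in coding sequence and 69.7 in miR-222-IP replicate 2 alone.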

How the data were processed

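RISC-IP RNA of MSC myocytes was amplified, sequenced in paired ends and aligned by the authors to mm10 with SOAPSplice. The authors converted reads to bed with bedtools, ran macs2 with its default settings on every library and deposited peaks with a −log10 p over 20 (version and background of macs2 not given in the sources used here). The deposited −log10 p is a measure of evidence that rises with depth, and read counts, depth and input were not used here. Only columns 1 to 3 and 5 of the lists were read.

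Peaks of 5 libraries (all but control-IP replicate 3) were merged with code in Python 3.11.15 (numpy 2.4.6, pandas 2.3.3, pysam 0.24.0, bedtools 2.31.1). An overlap of 1 bp with a GENCODE M21 exon counted. Sequences were read from GRCm38, and microRNAs from RefSeq on GRCm38.p6. An interval's value in a library is its highest peak there. 3'UTR excluded bases that are coding in another transcript. Words were ranked and not tested. Conditions were compared by the exact permutation test, with labels exchanged within experiments. The code was tested on simulated data, with 9 of 9 checks passed.

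The members and gene lists were chosen with earlier results of these data known. Named genes were the 10 members with a peak in all 5 libraries and the highest median over control-IPs, members in the gene lists, the 3 largest and 3 smallest log2 ratios, the member with the most sites and the gene with the most members. A gene that this rule names is not reported here. The genes followed up by the study were added after their values were seen. The splits by number of libraries, by single library and by strata of height were also chosen after seeing the data.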

Additional observations from a re-analysis of the deposited data

Results flagged for a closer look

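The share of exonic peaks with the miR-1/miR-206 7-mer was 51.36% in control-IP replicate 3, far from the 2.93% to 3.85% of the other 3 control-IPs. Its gap to the nearest of them was 0.981 of the range of the 4, above Dixon's 95% critical value, which chance exceeds in about 1 group in 20. The median width of its exonic peaks was 12270 bp, and the median of the 210 7-mers in it was 47.5%.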

How the results depend on the processing

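With peaks over 50, the members numbered 620, the 3'UTR ratio was 1.34 (rank 2), the coding ratio 0.893 (rank 193), the log2 difference −0.00959, and 26 members lay above and 22 below the control-IPs (20.4% and 20.5% of all intervals). With all 6 libraries the share of intervals with the site was 1.21 times the median word, against 1.38, and the difference in share between conditions was −11.9 percentage points (exact permutation test, p = 0.778). For the 6-mer the members numbered 4803, that share was 1.03 times the median, the 3'UTR ratio 1.15 and the log2 difference −0.00655. For the 8-mer these were 427, 2.06 and 1.36. With intervals of at most 1000 bp the share was 1.33 times the median and the log2 difference 0.0834. Without width strata the odds ratio was 1.78. Members above and below numbered 210 and 11 without scaling (50.8% and 2.56% of all intervals), 10 and 131 with scaling to the total (1.91% and 34.8%), and 316 and 350 with libraries lacking a peak given their lowest value (18.8% and 33.7%). The causes were not tested.

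With each library left out in turn, the members numbered 900 (without miR-222-IP replicate 2) to 1288, the 3'UTR ratio was 1.25 to 1.27 (rank 1 each time), the coding ratio 0.925 to 1.01, the share 1.38 to 1.42 times the median and the log2 difference 0.03 to 0.06. Members above numbered 124 to 212 and below 102 to 169. Fewer libraries must then be passed, and their shares over all intervals rose as well (24.6% to 50.8% and 24.6% to 49.2%). The difference in share between conditions was −0.119 (without control-IP replicate 2) to 0.339. Without the replicate block, that is without experiments, 54 members lay above and 45 below (10.7% and 13.1% of all intervals), and the log2 difference was 0.04. Restricted to genes with 3'UTR both under and outside intervals, the ratio was 1.27 (rank 2).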
